A study of Mus musculus with 6 samples.

Results

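The genes described here are 10 regulators of the anaphase-promoting complex or cyclosome (APC/C), the ubiquitin ligase that starts anaphase. They are its activators Cdc20 and Fzr1, its inhibitors Fbxo43 and Fbxo5, the securin Pttg1, and the spindle checkpoint genes Bub1, Bub1b, Bub3, Mad2l1 and Ttk. They were taken by gene name from a table of ribosome footprint levels for 22416 mouse genes. All 10 were in it, and all 10 were among the 15127 genes tested, those whose FPKM (fragments scaled to coding sequence length and to the reads of the library) averaged 1 or more over the 6 libraries.

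Ribo-lite, ribosome profiling for small cell numbers, measured these levels in 3 groups of 2 libraries, each library made from 500 pooled oocytes. The oocytes came from 4-week-old wild-type females on the C57BL/6 background that were given 5 IU of pregnant mare serum gonadotropin 44 h before collection. WT_FGO were fully grown oocytes with an intact germinal vesicle, and WT_MII were oocytes matured in culture to metaphase II. Both had the solvent DMSO in the medium. Treat_MII were metaphase II oocytes, labelled only as treated. The compound added during maturation was BYBX, a ligand that binds and stabilizes RNA G-quadruplexes, by the study's methods, and its results text gives 1 μM for these oocytes. The labels do not say whether the 2 libraries of a group came from separate mice, so the p-values measure only the spread between these libraries, which may be technical.

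The APC/C needs an activator to bind its substrates. FZR1 (CDH1) keeps the cyclins low while the oocyte waits in prophase, and CDC20 takes over at the metaphase-to-anaphase transitions, when securin and cyclin B are destroyed and separase is freed to cut cohesin. The checkpoint kinases TTK and BUB1 and the proteins BUB1B (BUBR1), BUB3 and MAD2L1 (MAD2) hold CDC20 inactive until the chromosomes are attached to the spindle, FBXO5 (EMI1) restrains FZR1, and FBXO43 (EMI2) keeps the egg at metaphase II until fertilization. The oocyte does not transcribe during maturation, so what it makes depends on stored mRNA. Cytoplasmic polyadenylation elements (CPEs) close to the polyadenylation signal in the 3′-untranslated region (3′-UTR) are a known means of turning on such mRNAs.

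The 3′ ends of these mRNAs are therefore printed for Cdc20, Bub1b, Fbxo43 and Mad2l1, which had the 4 largest positive maturation values of the 10, and for Pttg1 and Bub1, which lacked the element. A CPE was taken as TTTTAT or TTTTAAT and a signal as AATAAA or ATTAAA, on the transcript strand and in the GRCm38 genome with GENCODE release 21 transcripts. Fbxo5 and Ttk, which also had a CPE before the signal but lower values in WT_MII than in WT_FGO, are not printed. Capitals mark these motifs.
Cdc20, chr4:118432911-118432940, minus strand: TTTTATTTTATtttttctAATAAAgttcgt
Bub1b, chr2:118641556-118641585, plus strand: cactgtgtaTTTTATAATAAAatagttttt
Fbxo43, CPE, chr15:36150145-36150174, minus strand: gtatatatgtgtTTTTATactatacacaca
Mad2l1, shorter annotated end, chr6:66540962-66540991, plus strand: tgtAATAAAgaactcttaTTTTAATgtttt
Pttg1, chr11:43420274-43420303, minus strand: tatgtatgttgtattAATAAAgcatttgtg
Bub1, chr2:127801127-127801156, minus strand: atgtttaaaaaaAATAAAgcccatatgata

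Cdc20 had a 3′-UTR of 62 bases with 2 CPEs, which began 18 and 13 bases before the signal and share a base. Bub1b also had 2, at 38 and 6 bases before it, the nearer one touching the signal. Fbxo43, Fbxo5 and Ttk each had 1 CPE in the 100 bases before the signal, at 77, 67 and 79 bases. Fzr1, Pttg1, Bub1 and Bub3 had none in the whole 3′-UTR. The chosen transcripts of Fzr1 and Mad2l1 carried no signal in their last 50 bases. Another annotated transcript of Mad2l1 ends after a 3′-UTR of 1048 bases with 1 CPE that begins 15 bases downstream of the start of the signal. Of the 8 genes with a signal near the end, 5 thus had a CPE before it and 2 had 2 of them, against 19.0% and 3.25% of 11197 tested genes with such a signal. A CPE anywhere in the 3′-UTR was found in 6 of the 10 genes and in 56.7% of tested genes with a 3′-UTR. The motifs were matched by letters only, and the 5 genes with a CPE did not share a direction of change, as the values below show.

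**Figure D1:**
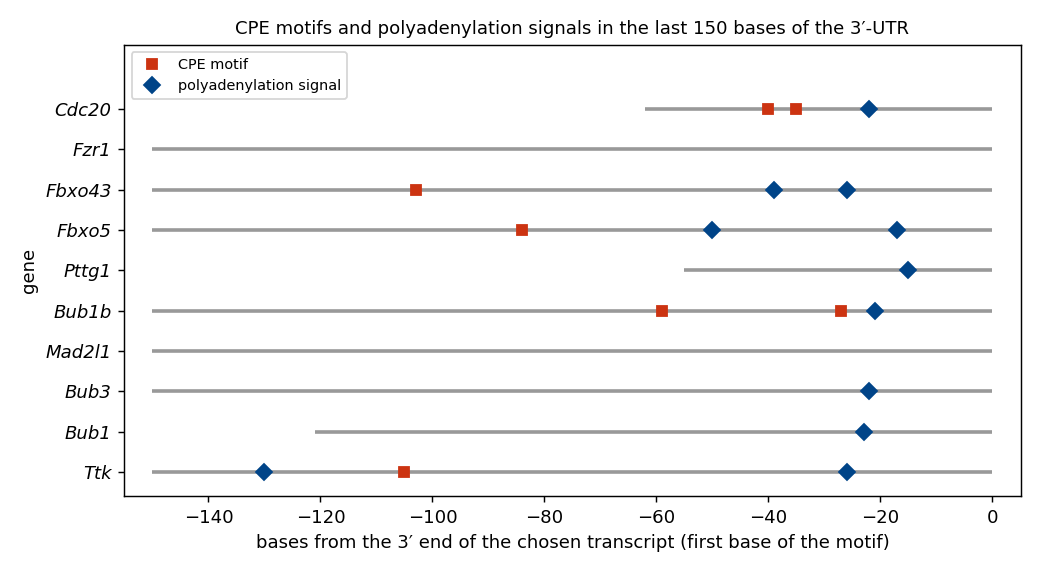
Positions of CPE motifs (squares) and polyadenylation signals (diamonds) in the last 150 bases of the 3′-UTR of each gene, as bases from the 3′ end of the chosen transcript to the first base of the motif; grey lines show the UTR. Cdc20 and Bub1b have 2 CPEs close to the signal, and Pttg1, Bub3 and Bub1 have none.

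A single member, Fzr1, held a sequence that could fold into a G-quadruplex by the pattern used here, 4 stretches of 3 or more G that are 1 to 7 bases apart. It lay in the 5′-UTR and is shown, in capitals throughout, because such structures are what BYBX binds. In all, 6.95% of 14808 tested genes with a coding transcript had the pattern there.
Fzr1, chr10:81378431-81378456, minus strand: GGGACAGATTGGGGGAGGGAGTCGGG
None of the other 9 genes had the pattern in the 5′-UTR, and none of the 10 had it in the coding sequence or 3′-UTR.

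The libraries were shallow, and depth differed between the groups. FPKM values were whole multiples of a step, which gave library sizes of 94309 and 107251 reads in WT_FGO, 164972 and 230907 reads in WT_MII, and 331304 and 275604 reads in Treat_MII. The 2 treated libraries resembled each other most (chi-square per degree of freedom 1.60), while WT_MII 2 differed less from them (4.54 and 4.17) than from WT_MII 1 (8.78). Between 9 and 10 of 10 oocyte marker genes, among them the zona pellucida genes, were above 0 in every library, with summed levels from 16154 to 28624 FPKM. These markers moved with stage, since 2 were called higher at maturation (Oosp1 and Dazl, log2 changes 6.43 and 7.07) and 5 lower (Zp1, Zp2, Zp3, Bmp15 and Nobox, -2.46 to -3.81). With treatment 9 of the 10 had positive values and 5 an unadjusted p under 0.05, with none called, and the part of this shift in the results below was not tested. Markers of the surrounding cumulus and granulosa cells summed to 133 and 1154 FPKM in WT_FGO, 274 and 161 in WT_MII, and 124 and 147 in Treat_MII. Inha was 29.0 FPKM in WT_FGO 1 and 747 FPKM in WT_FGO 2, and Amh was 57.4 and 196 FPKM. Inhba, Foxl2 and Fshr were at 0 in WT_FGO 1 and at 139, 33.2 and 13.5 FPKM in WT_FGO 2. Cyp19a1 (35.1 and 24.7 FPKM) and Kitl (11.3 and 0) went the other way, and Ptx3, Has2 and Nr5a2 were at 0 in both. The part of such cells in the results below was not tested. Values are relative to each library's reads, so a change in the total footprints per oocyte would not show.

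Pttg1 was the highest of the 10 genes in every library, and the genes below it changed places between stages. In WT_FGO it had 7791 and 5658 FPKM and ranked 10 among all tested genes. It was followed by Mad2l1 and Ttk. The ranges of Bub1b, Bub3, Fzr1 and Fbxo5 overlapped one another there, and the range of Bub1 lay within those of Bub1b and Fzr1, so these levels had no settled order. Fbxo43 and Cdc20 were the lowest 2. In WT_MII Bub1b came second (rank 55 of all tested genes), then Mad2l1 (rank 87), Cdc20 (332) and Fbxo43 (453), with no overlap between neighbours. Fzr1 and Bub1 overlapped near the bottom, and Fbxo5 was the lowest. The treated oocytes kept the first 5 places, and Ttk and Bub3 overlapped in the next 2. Together the 10 genes took 0.580% and 0.470% of the reads in WT_FGO, 1.15% and 1.45% in WT_MII, and 1.78% and 1.80% in Treat_MII. Pttg1 made up 86.1% and 77.2% of the members' reads in WT_FGO and from 30.2% to 36.2% afterwards, when Bub1b made up from 49.3% to 55.0%.

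**Figure D2:**
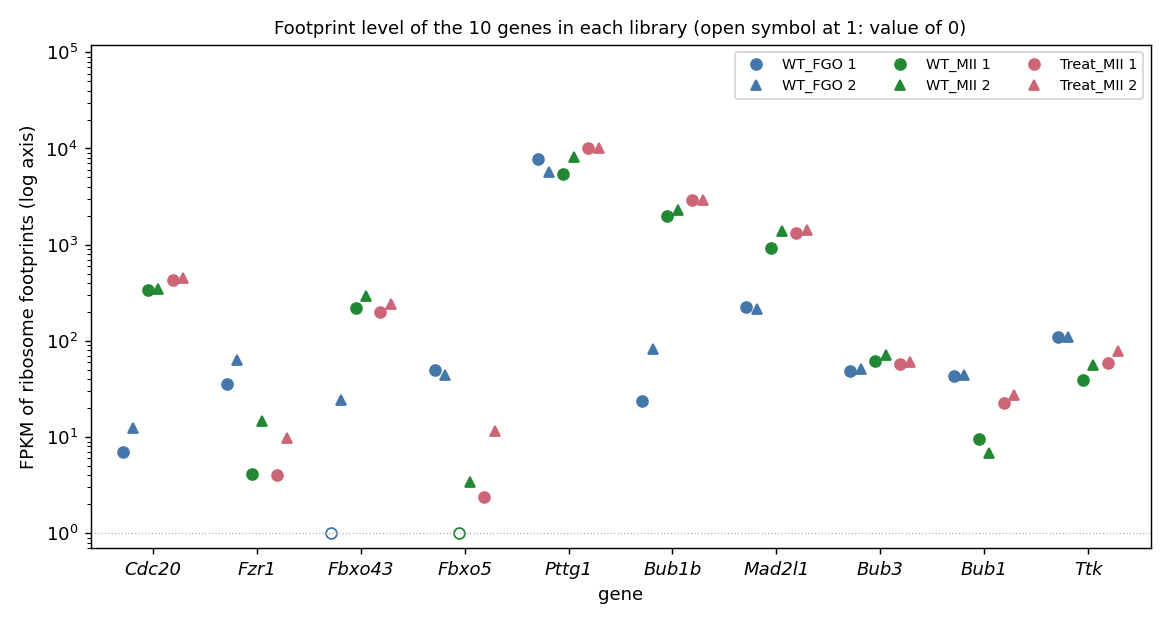
FPKM of ribosome footprints (log axis) of the 10 genes in each of the 6 libraries; colours mark the groups, circles and triangles the replicates, and open symbols at 1 stand for a value of 0. Cdc20, Fbxo43, Bub1b and Mad2l1 lie higher in all 4 metaphase II libraries than in both WT_FGO libraries, and Fzr1, Fbxo5, Bub1 and Ttk lie lower.

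**Figure D3:**
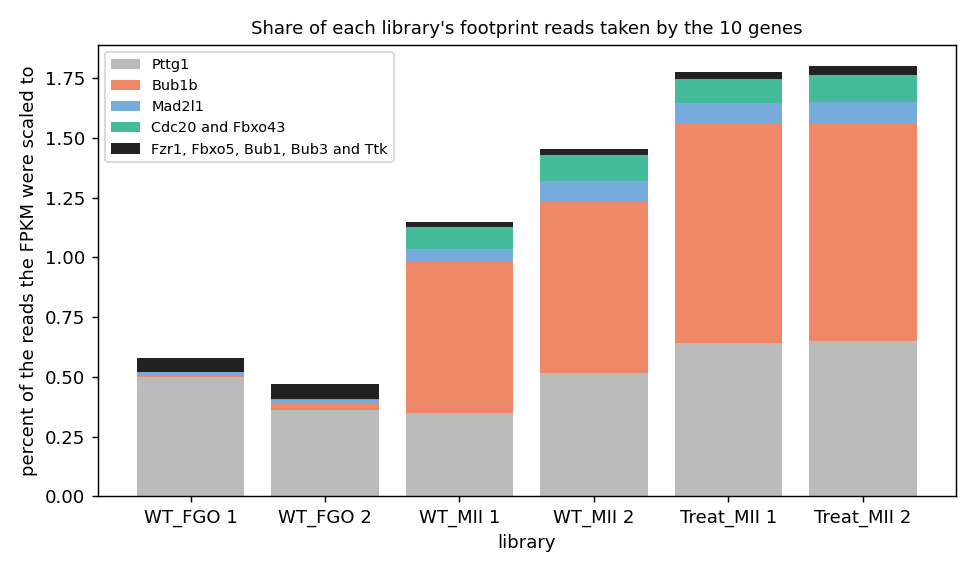
Share of each library's reads (percent of the reads the FPKM were scaled to) taken by the 10 genes, stacked by gene. The stacks reach 0.580% and 0.470% in WT_FGO and from 1.15% to 1.80% at metaphase II, where Bub1b is the widest band.

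The first comparison was maturation, WT_MII minus WT_FGO. Cdc20, Bub1b and Mad2l1 rose, and none of the 10 passed the test downwards. Among all tested genes 3.67% were called higher and 3.09% lower (limma on log2(FPKM + 1), all 6 libraries in 1 fit, Benjamini-Hochberg adjusted p under 0.05). The median change of all tested genes was -0.44 on this log2 scale, so a gene whose share stayed level stood above the median, and changes are given as the fit has them. By library, 5 of the 10 genes lay above in both WT_MII libraries (15.3% of all tested genes) and 4 lay below (25.8%), so only Pttg1 overlapped. By the ratio of mean FPKM + 1, 4 were more than 2-fold higher (23.6% of all tested genes) and 4 more than 2-fold lower (41.8%). With 2 libraries against 2, an exact two-sided permutation test of a single gene cannot go below p = 0.333.

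Among the activators, Cdc20 had 7.08 and 12.5 FPKM in WT_FGO, from 1 and 2 reads, and 340.1 and 344 FPKM in WT_MII, from 84 and 119 reads. Both mature libraries were far above both immature ones. The log2 change was 5.04 ± 0.40 (SE, limma adjusted p = 0.00277), and the ratio of pooled reads per library size was 34.5 with an exact 95% counting interval from 11.6 to 168. Here 38.2% of the 28-base stretches of the Cdc20 coding sequence also occur elsewhere in the genome, so the share of reads the counting gave it is uncertain. Fzr1 went the other way in its values, with 35.8 and 63.0 FPKM from 5 and 10 reads in WT_FGO and 4.10 and 14.6 FPKM from 1 and 5 reads in WT_MII. The groups did not overlap, but the log2 difference of -2.44 (95% interval -4.55 to -0.34) did not pass the test (limma adjusted p = 0.161). In footprints per coding length, Fzr1 was 5.06 times Cdc20 in both WT_FGO libraries, a ratio that rests on 1 and 2 reads of Cdc20. In WT_MII Cdc20 was 83.0 and 23.5 times Fzr1, a pair of ratios that rests on 1 and 5 reads of Fzr1.

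The inhibitors also differed in opposite directions, though neither passed the test. Fbxo43 was at 0 and 24.2 FPKM in WT_FGO, from 0 and 5 reads, and at 221 and 295 FPKM in WT_MII, from 70 and 131 reads. The pooled read ratio was 20.5 (95% counting interval 8.63 to 63.7), and the log2 difference of 5.67 had an interval from 2.26 to 9.08 and limma adjusted p = 0.0706. Its 2 WT_FGO libraries lay 4.66 apart on that scale. Fbxo43 passed the test with median centring (adjusted p = 0.0284), quantile normalization (0.0401) or with a minimum mean of 5 FPKM (0.0487), where 13.9% of the genes in the fit were called in either direction. Fbxo5 had 50.4 and 44.3 FPKM in WT_FGO and 0 and 3.43 FPKM in WT_MII, the latter from 0 and 1 reads. WT_FGO exceeded WT_MII 23.6-fold in pooled reads, with a 95% counting interval from 3.49 to 1007.5. Its log2 difference was -4.52 (95% interval -7.20 to -1.83, limma adjusted p = 0.0693, and 0.0482 with a minimum mean of 5 FPKM), and 25.7% of its coding stretches occur elsewhere in the genome.

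The levels of securin overlapped between the stages. Pttg1 had 7791 and 5658 FPKM in WT_FGO and 5409 and 8067 FPKM in WT_MII, from 389 to 1194 reads, and the groups overlapped. The log2 difference was -0.01 with a 95% interval from -0.59 to 0.58 (limma adjusted p = 1), and with each library centred on its median gene it was 0.46, so its sign depended on the scaling.

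Among the checkpoint genes, Bub1b and Mad2l1 rose. Bub1b, the BUBR1 protein of the mitotic checkpoint complex, went from 23.5 and 82.7 FPKM (7 and 28 reads) to 2001 and 2269.7 FPKM (1042 and 1654 reads). The log2 change was 5.56 ± 0.55 (limma adjusted p = 0.00523), and pooled reads rose 39.2-fold (95% counting interval 28.1 to 56.4), with no coding stretch shared with another place in the genome. Mad2l1, the MAD2 protein that binds CDC20, had 224 and 212 FPKM from 13 and 14 reads in WT_FGO and 917 and 1394 FPKM from 93 and 198 reads in WT_MII. Its log2 change was 2.37 ± 0.27 (limma adjusted p = 0.00793), and 31.8% of its coding stretches occur elsewhere.

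The other 3 checkpoint genes did not follow them. Bub3, the partner of both BUB1 and BUBR1, had 48.6 and 51.3 FPKM in WT_FGO and 61.1 and 71.5 FPKM in WT_MII. These rest on 5 to 18 reads, and the log2 difference of 0.40 had a 95% interval from -0.60 to 1.40. Of the Bub3 coding stretches 17.5% occur elsewhere in the genome. The kinase gene Bub1 had 43.4 and 44.0 FPKM in WT_FGO and 9.54 and 6.82 FPKM in WT_MII, where each library held 5 reads. Its log2 difference of -2.30 (95% interval -3.68 to -0.93) gave limma adjusted p = 0.0702, and 0.0468 among genes that averaged 5 FPKM or more. Ttk, the kinase that recruits the checkpoint to kinetochores, had 111 and 109 FPKM in WT_FGO and 38.95 and 55.7 FPKM in WT_MII. The log2 difference was -1.22 (95% interval -2.25 to -0.18, limma adjusted p = 0.157). Bub1b and Bub1, which encode related proteins, were thus 0.542 and 1.88 to 1 in WT_FGO by FPKM and 210 and 333 to 1 in WT_MII.

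The 3 calls of maturation rested on the spread estimated over all 6 libraries. Without the trend of variance on level Mad2l1 was lost (adjusted p = 0.118) and 2 calls were left. With the 4 compared libraries alone 0 of the 10 passed, as did 0 of all 15127 tested genes. The limma adjusted p there ran from 0.116 to 0.157 for Cdc20, Bub1b and Mad2l1, with the same log2 changes. Without either Treat_MII library the 3 calls were also lost, together with every other call among the tested genes. Without a WT_MII library Bub1b lost its call. Without a WT_FGO library Mad2l1 lost its call and Fbxo43 gained one. Calls over all genes shifted in these fits too. With each library left out, the log2 change ran from 4.67 to 5.41 for Cdc20 and 4.67 to 6.44 for Bub1b. For Mad2l1 it ran from 2.07 to 2.67.

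**Figure D4:**
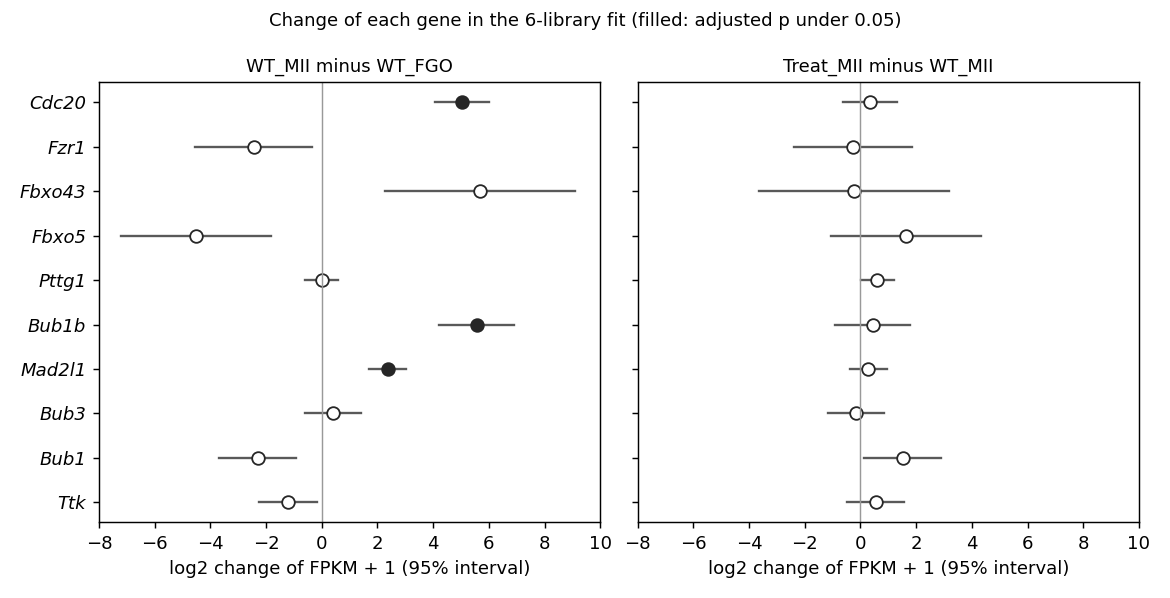
Log2 change of FPKM + 1 of each gene with its 95% interval from the limma fit of all 6 libraries, for WT_MII minus WT_FGO (left) and Treat_MII minus WT_MII (right); filled points have an adjusted p under 0.05. Cdc20, Bub1b and Mad2l1 are filled on the left, and none is filled on the right.

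The second comparison was the treatment, Treat_MII minus WT_MII. None of the 10 genes was called, and 0% of all tested genes were called in either direction by limma, with 576 higher and 306 lower at an unadjusted p under 0.05. That count turned on single libraries. Without WT_MII 1 there were 17 genes higher and 347 lower, without WT_MII 2 31 and 387, without Treat_MII 1 363 and 0, and without Treat_MII 2 398 and 0, while none of the 10 was called in any of these fits. By library, Cdc20, Pttg1, Bub1, Bub1b and Ttk lay above in both treated libraries (5 of 10, against 16.2% of all tested genes) and Bub3 lay below (1 of 10, against 15.6%). Bub1 and Fbxo5 were more than 2-fold higher by mean FPKM + 1 (2 of 10, against 19.9%) and none was more than 2-fold lower (21.2% of all tested genes).

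Bub1 and Pttg1 were the 2 members whose p lay under 0.05 before adjustment. In Treat_MII Bub1 had 22.8 and 27.4 FPKM, from 24 reads in each library, against 9.54 and 6.82 FPKM from 5 reads in each control. The log2 difference was 1.52 (95% interval 0.14 to 2.89, limma adjusted p = 0.836), and the pooled read ratio was 3.13 (95% counting interval 1.56 to 6.94). Both treated libraries stood above both WT_MII libraries and below both WT_FGO libraries. Fbxo5, the other gene past 2-fold, rested on 1 read in the controls and 5 in the treated libraries.

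The 2 most abundant genes differed by smaller factors. Pttg1 reached 10011 and 10161 FPKM in the treated libraries, against 5409 and 8067 FPKM in the controls. Its log2 difference was 0.61 (95% interval 0.02 to 1.20, limma adjusted p = 0.843), and the lower control library, WT_MII 1, stood 0.58 below WT_MII 2 on the log2 scale. Bub1b had 2918 and 2887 FPKM in Treat_MII, and its difference from the control was 0.45 (95% interval -0.90 to 1.79). A fit of the recovered reads with precision weights (voom) called Pttg1 and Bub1b higher (adjusted p = 9.14e-07 and 6.27e-07), among 1.13% of genes in that fit called in either direction. With at least 10 reads per gene it called Pttg1 (0.0469) and not Bub1b (0.0838), with 0.422% of genes called, and with at least 60 reads neither (0.276 and 0.377), with 0.370% called.

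For the other genes the interval of the difference included 0, as it did for Bub1b. Cdc20 had 425 and 448 FPKM in Treat_MII, a log2 difference of 0.35 from the control with a 95% interval from -0.61 to 1.32. Mad2l1 had 1335 and 1410.1 FPKM, a difference of 0.28 (-0.38 to 0.94) whose sign turned without WT_MII 1. Fbxo43 had 201 and 239.6 FPKM and a difference of -0.22 with an interval from -3.63 to 3.19, which leaves room for a large change either way. Bub3 had 58.1 and 59.9 FPKM (difference -0.16, interval -1.16 to 0.84), and Ttk had 59.4 and 78.7 FPKM (0.54, -0.49 to 1.58). Fzr1, the gene with the G-quadruplex pattern, had 4.08 and 9.81 FPKM from 2 and 4 reads, and its difference of -0.27 had an interval from -2.38 to 1.84. A change of Fzr1 within these limits was not detectable at this depth.

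The third comparison, Treat_MII minus WT_FGO, shares libraries with both others. Cdc20 (log2 change 5.39), Bub1b (6.002) and Mad2l1 (2.65) were called, all 3 higher, against 3.87% of all tested genes called in either direction (limma, adjusted p from 0.00236 to 0.00694). Bub1 differed by -0.78 here (95% interval -2.16 to 0.59). These calls rested on how the spread was estimated. With the compared groups alone 0 of the 10 passed, with 31 genes called higher and 1 lower among 15127 tested. Without the trend of variance on level 0 passed too, with 56 genes called higher and 3 lower. Not all 3 calls held when a WT_MII or a Treat_MII library was left out. With each library left out, the log2 change ran from 5.02 to 5.76 for Cdc20 and 5.12 to 6.89 for Bub1b. It ran from 2.61 to 2.69 for Mad2l1 and from 3.13 to 7.78 for Fbxo43.

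The wider machinery was read from 3 lists of 42 genes, all of which were tested, and 9 were called at maturation. Of all tested genes 3.67% were called higher and 3.09% lower there, the shares to set beside each list. Of 16 APC/C subunits and ubiquitin-conjugating (E2) enzymes, Cdc27 and Anapc10 rose and Ube2s fell. Cdc27, the APC3 subunit that docks the activators, had 21.3 and 18.7 FPKM in WT_FGO and 189.7 and 233 FPKM in WT_MII (log2 change 3.33, limma adjusted p = 0.00676). Anapc10, a subunit that helps to bind substrates, had 0 reads in both WT_FGO libraries and 5 and 24 in WT_MII. That is at least 4.92-fold higher when WT_FGO is set to 3 reads over the group, though 43.9% of its coding stretches occur elsewhere in the genome. Ube2s, the E2 that extends ubiquitin chains, went from 10 and 8 reads to 1 and 0, and 95.7% of its coding stretches occur elsewhere in the genome. The median change of the list was -1.34, against -0.44 for all tested genes, and 14 of the 16 genes had a negative value.

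Of 17 checkpoint and kinetochore partners, 3 rose, 0 fell and 14 did not pass, with a median change of -0.25. The 3 were Nuf2 (14.4 and 31.7 to 449 and 713 FPKM, log2 change 4.66) and Ndc80 (15.98 and 18.7 to 100.5 and 172 FPKM, 2.86), subunits of the complex that grips microtubules, and the kinetochore motor Cenpe (37.2 and 50.3 to 244 and 232 FPKM, 2.43). The limma adjusted p of these ran from 0.00535 to 0.0202. Of the coding stretches, 20.7% in Ndc80 and 6.43% in Cenpe occur elsewhere in the genome. Of 9 APC/C substrates and separase, 3 rose and 0 fell, with a median change of 1.77. Ccnb1, the cyclin B1 gene, had 0 reads in both WT_FGO libraries and 50 and 96 in WT_MII, at least 24.8-fold higher by the same floor, though 92.4% of its coding stretches occur elsewhere in the genome. Tpx2, a spindle assembly factor, changed by 3.51, and Espl1, which encodes separase itself, by 1.89 (limma adjusted p = 0.0139 and 0.0464). In Tpx2 7.78% of the coding stretches occur elsewhere. With treatment 0 of the 42 genes were called by limma. At an unadjusted p under 0.05, 3 lay higher and 0 lower, against 576 and 306 of 15127 tested genes. Precision weights called 1, Spdl1 (adjusted p = 0.0443), against 1.13% of genes in that fit. With at least 10 or at least 60 reads per gene these weights called 0 of the list genes. Of all genes in those fits 0.422% and 0.370% were called. The Spdl1 product brings dynein to kinetochores, and the gene had 43.2 and 26.1 FPKM in WT_MII against 114 and 125 FPKM in Treat_MII. Spdl1 was named after its values were seen.

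**Figure D5:**
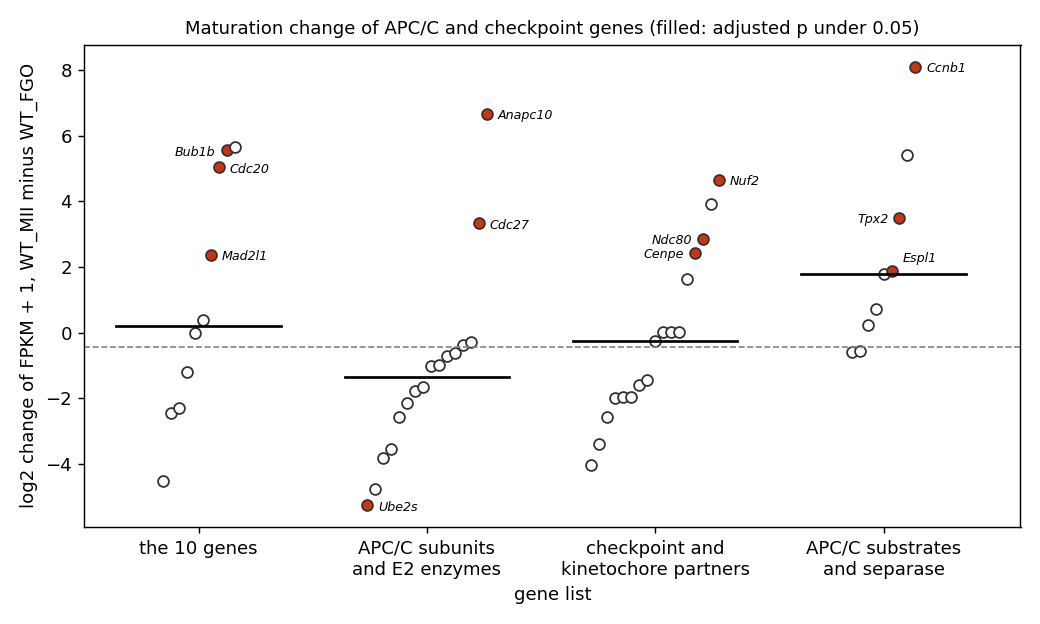
Log2 change of FPKM + 1 at maturation for the 10 genes and 3 related lists; each point is a gene, filled where the limma adjusted p is under 0.05, black bars are list medians and the dashed line is the median of all tested genes, -0.44. Ccnb1 and Anapc10 are the highest 2 filled points, and Ube2s is the only filled point below 0.

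Pttg1 was also used to look for genes with the same pattern. Over the 6 libraries the 3 most alike of 6519 genes averaging 10 FPKM or more were Prkab1 (Pearson r of log2(FPKM + 1) 0.988), mt-Co1 (0.986) and Cpa1 (0.981). All 3 share its order in that WT_MII 1 was lower than WT_MII 2 and the treated libraries were the highest, and r over these 6 points, which share libraries and depth, is a description.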

How the data were processed

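The 6 libraries were grouped by their titles. The deposited values were FPKM per gene, which the authors made from reads placed on mm10; the submitters' processing notes name cutadapt 1.14, Bowtie2 2.2.2 and STAR 2.5.3a. The counting program, annotation, use of strand and molecular identifiers are not given in the sources used here. Of 22442 rows, 26 that repeated a gene name were left out. FPKM multiplied by GENCODE coding length fell on whole reads (tolerance 0.02 reads) in all 6 libraries for 96.4% of genes. Intervals on reads and the floor of 3 reads cover counting error only, since PCR copies are not independent molecules.

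log2(FPKM + 1) of genes averaging 1 FPKM or more was fitted with limma 3.58.1 (lmFit, eBayes with trend) in R 4.3.3, after a run on simulated data, with Benjamini-Hochberg adjustment over all genes tested. The pseudocount understates changes of low genes. Other steps used Python 3.11.15, pandas 2.3.3, scipy 1.17.1 and matplotlib 3.10.9. For each gene the APPRIS principal transcript was used, by best support level and then longest coding sequence. The 10 genes and the lists were chosen with earlier results of these data known. The text names the 10 genes, list genes called in any comparison (at most 5 per list) and the 3 genes most alike to Pttg1. Replicate numbers were not taken as pairs, since deviations of same-numbered libraries correlated at 0.0342, 0.0176 and 0.0189 over 2706 genes.

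Alternatives were another pseudocount, filter, scaling or variance model, precision weights on recovered reads, a replicate block, the compared groups alone and leaving out each library. Filters of 10 and 60 recovered reads were added after seeing the data. RNA-seq libraries were not used here, so no translational efficiency was computed.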

Additional observations from a re-analysis of the deposited data

How the results depend on the processing

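Members called at maturation numbered 3. They numbered 6 with a mean of at least 5 FPKM (13.9% of all genes in that fit called), with precision weights (16.3%, also at 10 and 60 reads with 22.1% and 49.6%) and with limma at 60 reads (46.3%), where 8 of the 10 were tested. Added to the 3 were Fbxo43 (higher), Fbxo5 and Bub1 (lower), and at 60 reads Fbxo43 (higher), Bub1 and Ttk (lower). With no trend the members called numbered 2 (188 genes higher and 140 lower over all), and with the compared groups alone 0, as over all genes. With treatment 0 were called, but 2 with precision weights and 1 with these at 10 reads. In treated against fully grown oocytes 3 were called. None was called with the compared groups alone (31 genes higher and 1 lower over all) or without the trend (56 and 3). Precision weights gave 7 (19.5% of all genes, also at 10 reads with 25.3%) and, at 60 reads, 5 (52.6%). The replicate block, whose numbers do not pair the samples, gave 4 calls at maturation (Fbxo43 added, limma adjusted p = 0.0436) and 0 with treatment. Over all genes this fit called 453 higher and 335 lower at maturation. Members past 2-fold with treatment numbered 2, and 1 to 2 with each library left out, 1 being reached without WT_MII 1. List genes called at maturation numbered 9, but 0 with the compared groups alone, 2 without the trend, 19 with precision weights (also at 10 reads), 14 with these at 60 reads and 0 to 11 with each library left out; with treatment precision weights called 1. Over all genes the calls at maturation were 555 higher and 468 lower, 758 and 305 with median centring, 803 and 1575 with precision weights, 777 and 1066 without WT_FGO 1, 188 and 140 without the trend, and 0 with the compared groups alone or without either treated library. The sign turned for 3 of 30 member changes, all uncalled: Pttg1 at maturation (0.46 with median centring, 0.062, 0.037 and 0.014 with precision weights without and with minima of 10 and 60 reads, and -0.30 to 0.28 with each library left out), Fzr1 with treatment (-1.08 to 0.54 with each library left out) and Mad2l1 with treatment (-0.023 to 0.58 likewise). The compared-groups fit and the fits with a library left out estimate the spread from fewer samples. The cause of the differences between settings was not tested. Fzr1, Fbxo5 and Bub3 had the fewest reads, 27, 18 and 79 over the 6 libraries.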
